A study of Mus musculus with 9 samples.

Results

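Lin28a, Lin28b, Igf2bp1, Igf2bp2, Igf2bp3, Hmga2 and Trim71 are early progenitor genes that are repressed by the let-7 microRNAs. These 7 genes were chosen by name for that regulation, and each matched 1 Ensembl identifier by symbol among the 57010 genes of the count table. RNA-seq had been performed on cortex of single mouse embryos at E12.5 (embryonic day), with 3 embryos per genotype. Ctrl embryos were labelled as wild type, and whether they carried floxed alleles or Cre is not given in the sources used here. In cKO embryos, lox/lox alleles of Cnot3, which encodes a subunit of the CCR4-NOT deadenylase, were recombined by Emx1-Cre, a driver active in radial glial cells (RGCs) of the dorsal telencephalon and in their progeny. The dcKO embryos carried Emx1-Cre and lox/lox alleles of both Cnot3 and Trp53, the gene of p53. Blood, vessels and meninges in the dissected tissue lie outside the Emx1 lineage and so keep both genes.

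LIN28 proteins bind the loop of let-7 precursors and block their maturation, in part by recruiting the uridylating enzymes TUT4 and TUT7. Mature let-7 pairs through its seed with sites in 3′UTRs, including those of Lin28a and Lin28b themselves, and its rise during development accompanies the decline of these early genes in many tissues. The IGF2BP proteins bind and stabilize mRNAs, HMGA2 is a chromatin protein of young neural stem cells, and TRIM71 is an RNA-binding ubiquitin ligase of early embryos. CCR4-NOT is the deadenylase that the microRNA effector complex recruits to its targets.

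The mature microRNAs are shown first because their seeds define the sites searched for in the 7 transcripts. RefSeq (GRCm38.p6) listed 10 mature names of the let-7 family with the seed GAGGUAG, in capitals below, and let-7j has a different last seed base. The locus of let-7a-5p is chr13:48538239-48538260 on the minus strand, that of let-7i-5p chr10:122985698-122985719 on the minus strand and that of miR-98-5p chrX:151913229-151913250 on the plus strand. The sequence of miR-125b-5p, from chr9:41581940-41581961 on the plus strand, has another seed and is shown because miR-125 also targets Lin28 mRNAs.
mmu-let-7a-5p: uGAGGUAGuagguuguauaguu
mmu-let-7i-5p: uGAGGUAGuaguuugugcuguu
mmu-miR-98-5p: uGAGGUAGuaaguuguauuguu
mmu-let-7j: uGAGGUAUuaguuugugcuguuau
mmu-miR-125b-5p: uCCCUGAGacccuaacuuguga

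The precursor loops are shown because LIN28 acts on them. Of 11 let-7 family hairpins listed with both arms, 8 hold the LIN28-bound motif GGAG between the arms, against 8.07% of the 644 hairpins of all microRNAs. The motif is in capitals in 3 of the loops below, from hairpins at chr13:48538179-48538272 (let-7a-1, minus strand), chr16:77599657-77599750 (let-7c-1, plus strand) and chr17:17830352-17830444 (let-7e, plus strand). The loop of let-7c-2, at chr15:85706603-85706697 on the plus strand, has no GGAG.
let-7a-1 loop: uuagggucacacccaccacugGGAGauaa
let-7c-1 loop: uagaguuacacccugGGAGuuaa
let-7e loop: gaggaagacacccgaGGAGauca
let-7c-2 loop: uugggcucugccccgcucugcgguaa

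Each of the 7 transcripts has at least 1 match to the let-7 seed in its 3′UTR. The search used the DNA letters CTACCTC, which pair with bases 2 to 8, on the transcript strand of GENCODE M21 models (GRCm38). Of 20771 3′UTRs, 8.16% hold this match. Below is the match nearest the stop codon of each gene, in capitals, with the adjacent A of the longer match CTACCTCA. The windows lie on the minus strand at chr4:134005189-134005210 (Lin28a), chr10:45381022-45381043 (Lin28b), chr11:95961778-95961799 (Igf2bp1), chr16:22059473-22059494 (Igf2bp2), chr6:49086787-49086808 (Igf2bp3), chr10:120364224-120364245 (Hmga2) and chr9:114512472-114512493 (Trim71).
Lin28a: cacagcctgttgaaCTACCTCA
Lin28b: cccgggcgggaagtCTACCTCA
Igf2bp1: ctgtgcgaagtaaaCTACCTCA
Igf2bp2: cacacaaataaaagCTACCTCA
Igf2bp3: gcatttttactcaaCTACCTCA
Hmga2: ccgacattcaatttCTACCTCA
Trim71: acattgcctaagtcCTACCTCA

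The number of let-7 matches separates the family members. Lin28b, Igf2bp1, Hmga2 and Trim71 have 4 matches each, Lin28a has 2, and Igf2bp2 and Igf2bp3 have 1 each. Among 2042 3′UTRs within 20% of the length of that of Hmga2 (2977 bases), 15% have a match and 0.0979% have as many as 4. The corresponding share with 4 or more is 0.269% for Lin28b, 0.418% for Igf2bp1 and 0.587% for Trim71. The single match of Igf2bp2 and of Igf2bp3 is shared by 11.5% and 12.7% of 3′UTRs of like length. When TACCTCA without a preceding C was also counted, which overlaps none of the matches above, Hmga2 had 7 matches, Trim71 had 6, Lin28b and Igf2bp1 had 5, Lin28a and Igf2bp2 had 2 and Igf2bp3 had 1, and 13.6% of all 3′UTRs had at least 1. The miR-125 match CTCAGGG, held by 12.2% of 3′UTRs, occurs once in Lin28a, Lin28b, Igf2bp3 and Trim71. It was not found in the 3′UTRs of Igf2bp1, Igf2bp2 and Hmga2. A match is a description of these letters and no measurement of binding.

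**Figure D1:**
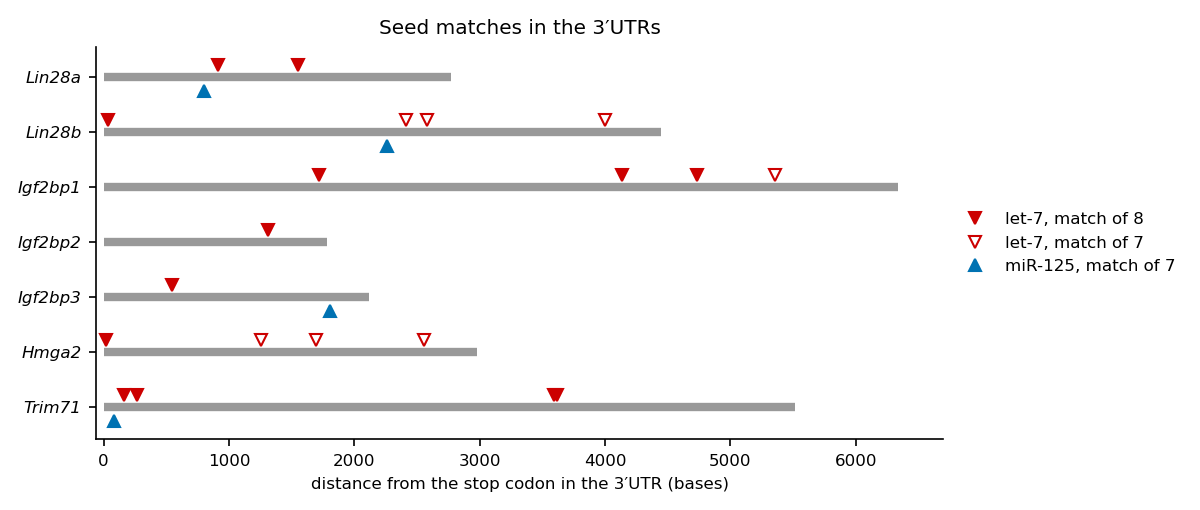
Positions of seed matches in the 3′UTR of each gene, with distance from the stop codon in bases on the horizontal axis and the 3′UTR as a grey bar. Lin28b, Igf2bp1, Hmga2 and Trim71 have 4 let-7 matches each (red, filled where the adjacent A is present), and 4 of the 7 genes have 1 miR-125 match (blue).

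Library depth and identity were checked before the 7 genes were compared. Between 21193798 and 45073349 reads per embryo were counted on genes. In CPM (counts scaled to library size with TMM factors), Cnot3 was 107 ± 9.54 (SD, n = 3) in Ctrl and 15.6 ± 1.46 in cKO. In dcKO it was 7.33, 48.2 and 19 CPM in replicates 1, 2 and 3, and Trp53 was 15.1, 110 and 20.6 CPM against 215 to 254 CPM in Ctrl. The library labelled dcKO replicate 2 thus kept more of both targeted transcripts. It alone had over 10 reads of Gsx2 (96 reads), Dlx1 (47 reads) and Dlx2 (88 reads), which mark the subpallium. Dlx5, also listed as a subpallial marker, had 1 read in that library and at most 2 reads in any embryo. For Lin28a, Igf2bp1, Igf2bp2, Hmga2 and Trim71, the difference of dcKO from Ctrl is given with and without that library. Cortical identity was visible in Emx2, at 113 to 312 CPM in all 9 embryos.

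Control cortex expressed the 7 genes over a wide range. On a per-length scale (CPM per kilobase of transcript), Hmga2 stood highest at 114 ± 20.4 (SD, n = 3), above 94.8% of 13561 tested genes. Igf2bp2 followed at 68.5 ± 2.77, then Igf2bp1 at 28 ± 1.13 and Igf2bp3 at 25.6 ± 1.56. The ranges of Igf2bp1 and Igf2bp3 overlapped, so their order is not resolved. Lin28b was far lower at 0.891 ± 0.0231. Trim71, at 0.0554 ± 0.0395, and Lin28a, at 0.0292 ± 0.0168, were close to the limit of detection and overlapped each other. In cKO cortex, Lin28a ranked above Trim71 and Igf2bp3 above Igf2bp1, with no overlap between the embryos of either pair.

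By the stated threshold, an adjusted p-value under 0.05 with an absolute log2 fold change above 1 in edgeR's quasi-likelihood test, 0 of the 7 genes were called in any comparison. The background was as low: 0.0146% of 13680 tested genes were called in cKO against Ctrl, 0% in dcKO against Ctrl and 0.0146% in dcKO against cKO. Lin28a and Trim71 had too few reads for this test and their values come from the same model fitted to all 26872 genes with a read, which called 813, 692 and 8 genes in the 3 comparisons and again neither of these. Of the 5 genes that passed the filter, 1 (Igf2bp1) had an unadjusted p under 0.05 in cKO, in the lower direction, where the share among all tested genes was 11.7% lower and 15.3% higher. In dcKO against Ctrl 0 of 5 had such a p, with 11.2% of all genes lower and 18% higher. In dcKO against cKO the count was also 0 of 5, with 2.38% lower and 2.05% higher. DESeq2 called 0 of the 5 genes in each comparison, where it called 1206, 1157 and 52 of the 13680 tested genes, or 8.82%, 8.46% and 0.38%. Both mutants were compared with the same 3 Ctrl embryos. In bulk tissue, fewer cells of a type and less RNA per cell cannot be told apart.

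**Figure D2:**
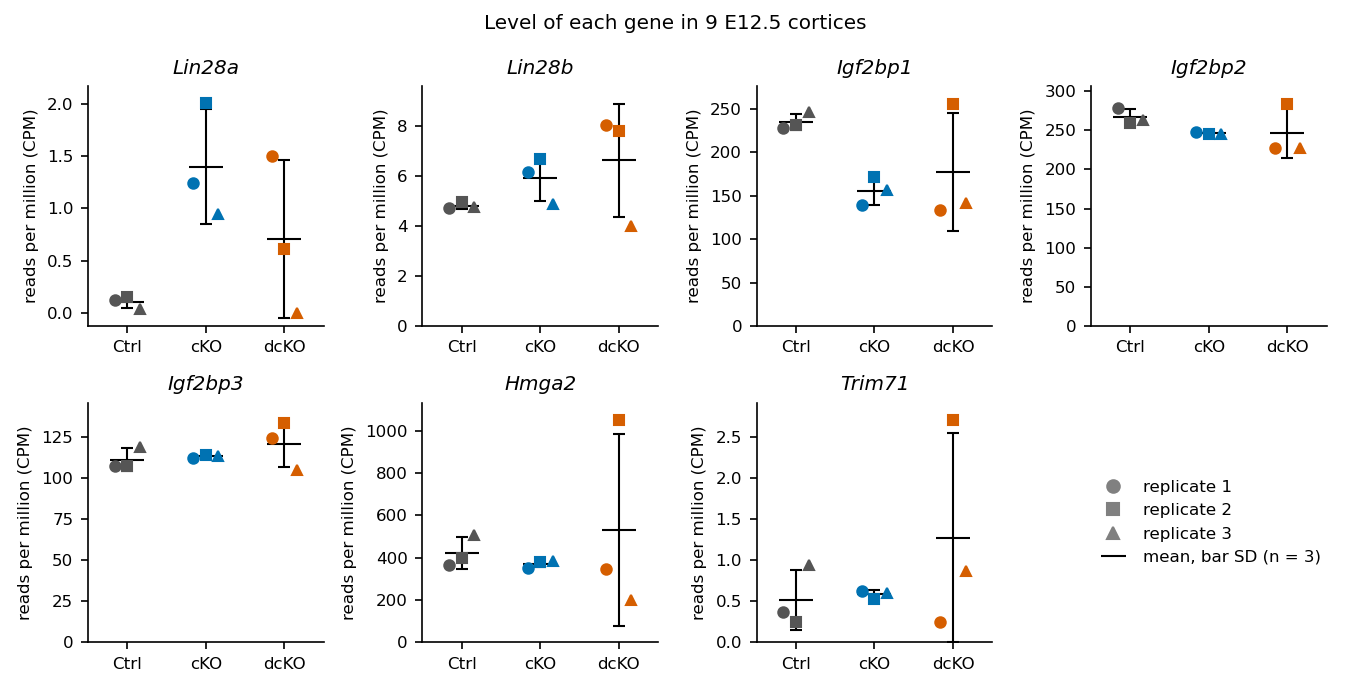
Level of each of the 7 genes in CPM (vertical axes) in the 9 embryos, by genotype, with symbols for replicates, the mean as a horizontal line and the SD as a bar. Lin28a was at 0.943 CPM or more in the 3 cKO embryos and at 0.149 CPM or less in Ctrl, and dcKO replicate 2 had the highest Hmga2 and Trim71.

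Lin28a (ENSMUSG00000050966.10, chr4:134003330-134018841, minus strand) encodes the LIN28 paralog prominent in pluripotent cells and the early embryo. It was nearly absent from control cortex and present in most mutant embryos. It had 3, 3 and 1 reads in Ctrl replicates 1 to 3, then 34, 54 and 25 reads in cKO and 54, 24 and 0 reads in dcKO. The 3 cKO embryos were all above the 3 Ctrl embryos, a pattern that 19% of all genes with a read show in this direction. The 3 dcKO embryos were split, with 1 at 0 reads, which allows up to 0.124 CPM (3 reads).

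Summed over embryos, Lin28a had 113 reads in cKO and 7 in Ctrl, a ratio of their shares of all reads of 16.3 (exact 95% interval 7.64 to 41.3, covering counting error only). The sum of 78 reads in dcKO gave a ratio to Ctrl of 8.31 (interval 3.85 to 21.4). The fitted log2 difference was 3.69 ± 1.21 (SE) in cKO, with an unadjusted p of 0.00587 and an adjusted p of 0.0933 (edgeR, all genes with a read). In that fit, 8.15% of genes were higher at an unadjusted p under 0.05. DESeq2 on the same genes gave an adjusted p of 0.02, and edgeR on the 6 embryos compared gave 6.3e-05, past the threshold, where 3.14% and 5.46% of genes were called higher. A permutation test of 3 against 3 embryos gave an exact p of 0.1, the smallest that it can give.

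In dcKO, the fitted log2 difference of Lin28a from Ctrl was 2.69 ± 1.18 (unadjusted p = 0.0327, adjusted p = 0.23 by edgeR), with 8.66% of all genes higher at an unadjusted p under 0.05. Without dcKO replicate 3, the embryo with no Lin28a read, it was 3.26 with an adjusted p of 0.0101 by edgeR, and 4.19% of genes were called higher. Without dcKO replicate 2 it was 2.85 with an adjusted p of 0.0775. With the number in the embryo codes as a block (see Hmga2 below) it fell below 0. That value rests on the pair of Ctrl replicate 3 (1 read) and dcKO replicate 3 (0 reads). The difference between dcKO and cKO, -1 ± 1.04 on the log2 scale (adjusted p = 0.89 by edgeR), was smaller than its standard error.

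Markers of tissues next to the cortex also differed between the groups, and their part in the Lin28a result was not tested. The summed level of 5 hem and choroid plexus markers was 4.25 to 22.8 CPM in Ctrl, 49.1 to 190 CPM in cKO and 55.2 to 219 CPM in dcKO, and Ttr, the defining transcript of choroid plexus, had 0 reads in each Ctrl embryo. In dcKO replicates 1, 2 and 3 the 5 markers summed to 219, 55.2 and 73.6 CPM. Erythroid genes, 8 in all, summed to 7690 to 11500 CPM in Ctrl, 9520 to 14500 CPM in cKO and 4940 to 6780 CPM in dcKO. In dcKO replicates 1, 2 and 3 the erythroid genes summed to 6780, 4940 and 6530 CPM.

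Lin28b (ENSMUSG00000063804.9, chr10:45376620-45486395, minus strand) encodes the other LIN28 paralog and was more abundant than Lin28a, also per kilobase, in every embryo. It was 4.73, 4.96 and 4.76 CPM in Ctrl, 6.17, 6.69 and 4.9 CPM in cKO, and 8.05, 7.82 and 4.02 CPM in dcKO. Ctrl embryos were tightly grouped, and the third embryo of each mutant lay at the level of Ctrl or below it. The fitted log2 differences were 0.3 ± 0.33 in cKO (adjusted p = 0.592) and 0.46 ± 0.33 in dcKO (adjusted p = 0.368), both by edgeR. Without dcKO replicate 3, the dcKO value was 0.72 with an adjusted p of 0.0516 and no overlap with Ctrl, which 32.3% of tested genes also showed in that direction. With a correction for GC content it was -0.1. Lin28a made up a larger share of the Lin28 transcripts per kilobase in cKO than in Ctrl. This share was 1.15 to 4.42% in Ctrl, 22.9 to 31.6% in cKO, and 22.3, 10.8 and 0% in dcKO. The cKO share was above that of both other genotypes in every embryo (exact permutation p = 0.1 in each comparison, the smallest possible).

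Igf2bp1 was the member with the largest lower difference in cKO. The gene (ENSMUSG00000013415.10, chr11:95957163-96005940, minus strand) encodes the IGF2BP paralog linked to self-renewal of fetal neural stem cells. Ctrl embryos had 228, 231 and 246 CPM and cKO embryos 139, 172 and 157 CPM, with no overlap. Of the 5 tested members, 2 (Igf2bp1 and Igf2bp2) were lower in cKO without overlap, against 28% of tested genes. Of the dcKO embryos, replicates 1 and 3 had 134 and 142 CPM, while the library labelled dcKO replicate 2 had 256 CPM, above every Ctrl embryo. The ratio of the cKO mean to the Ctrl mean was 0.665, and the fitted log2 difference was -0.59 ± 0.24 (unadjusted p = 0.0345, adjusted p = 0.153 by edgeR, 0.121 by DESeq2). In the fit of the 6 embryos alone, the adjusted p was 0.000648, and 24.2% of tested genes were lower with an adjusted p under 0.05.

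In dcKO, the log2 difference of Igf2bp1 from Ctrl was -0.41 ± 0.24 (adjusted p = 0.282 by edgeR). Without dcKO replicate 2 it was -0.77 ± 0.14 with an adjusted p of 0.00919, where 6.07% of tested genes were lower with an adjusted p under 0.05. With dcKO replicate 3 left out instead it was -0.27 with an adjusted p of 0.344, and the embryos overlapped. In all, 5 of 6 mutant embryos were below every Ctrl embryo, and the exception was the library labelled dcKO replicate 2. That library also kept more Cnot3 and Trp53 and had subpallial reads, and their part in its Igf2bp1 level was not tested. In each of these fits the difference was under 1 on the log2 scale and so short of a call.

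Igf2bp2 (ENSMUSG00000033581.18, chr16:22059009-22163299, minus strand), a paralog whose transcription HMGA2 promotes in several tissues, varied little. It was 279, 259 and 263 CPM in Ctrl and 248, 245 and 245 CPM in cKO. In dcKO it was 228, 284 and 228 CPM. The cKO embryos lay just under the Ctrl embryos without overlap, as 28% of tested genes did, and the log2 difference of -0.12 ± 0.15 had an adjusted p of 0.644 (edgeR). The dcKO difference was -0.11 ± 0.15 (adjusted p = 0.637 by edgeR). Without dcKO replicate 2, the highest embryo, it was -0.23 with an adjusted p of 0.204.

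Igf2bp3 (ENSMUSG00000029814.11, chr6:49085223-49214957, minus strand), the third paralog, had the smallest spread of the 5 tested genes over the 9 embryos. On the scale of CPM per kilobase it was 24.7, 24.7 and 27.4 in Ctrl, 25.7, 26.3 and 26 in cKO, and 28.5, 30.7 and 24.2 in dcKO, and the groups overlapped. The log2 differences were 0.02 ± 0.15 in cKO and 0.12 ± 0.15 in dcKO (adjusted p = 0.942 and 0.616 by edgeR). Both turned to -0.22 with a correction for GC content. Malsu1 overlaps the 3′ end of Igf2bp3 on the other strand with 241 to 1011 reads per embryo, and the strand setting of the read counting is not given in the sources used here.

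Within the Igf2bp family, the share of Igf2bp1 was lower and that of Igf2bp3 higher in cKO. Per kilobase, Igf2bp1 made up 22 to 23.6% of the 3 transcripts in Ctrl, 15.6 to 18.8% in cKO and 15.5, 22.8 and 17% in dcKO. Igf2bp3 made up 20 to 22.1% in Ctrl, 24 to 24.3% in cKO and 22.9 to 27.7% in dcKO, above Ctrl in all 6 mutant embryos. The shares are parts of a common total, so a lower level of Igf2bp1 raises the share of Igf2bp3. The level of Igf2bp3 itself differed from Ctrl by 0.02 ± 0.15 in cKO and 0.12 ± 0.15 in dcKO on the log2 scale. How often other gene families separate in this way was not tested. Each separation from Ctrl without overlap had an exact permutation p of 0.1, the smallest that 3 against 3 embryos allow. The share of Igf2bp2 was 54.3 to 58% in Ctrl and overlapped with both mutants.

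**Figure D3:**
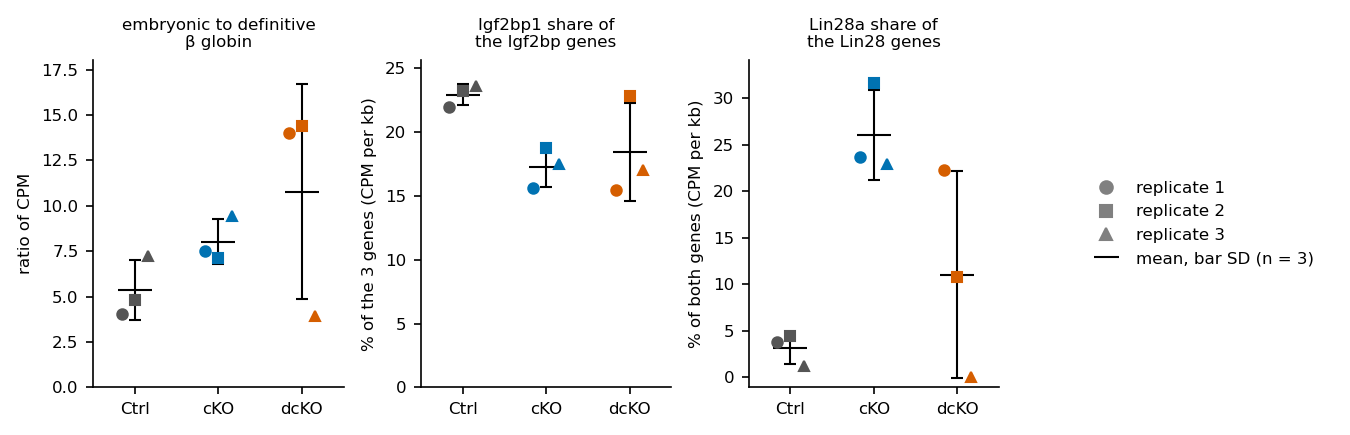
Ratio of embryonic to definitive beta globin transcripts (left), share of Igf2bp1 among the Igf2bp genes (middle) and share of Lin28a among the Lin28 genes (right), both shares in percent of CPM per kilobase, for 9 embryos with mean and SD. Igf2bp1 is at or under 18.8% in the cKO embryos and at or above 22% in Ctrl, and the globin ratio of dcKO replicate 3 is 3.96.

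Hmga2 (ENSMUSG00000056758.15, chr10:120361275-120476469, minus strand), the most abundant of the 7 genes, lay close to Ctrl in cKO and spread widely in dcKO. Ctrl embryos had 366, 397 and 510 CPM and cKO embryos 354, 380 and 383 CPM. The dcKO embryos had 347, 1050 and 199 CPM, so that 1 was above and 2 were below every Ctrl embryo. The log2 differences were -0.19 ± 0.48 in cKO (adjusted p = 0.829) and 0.32 ± 0.48 in dcKO (adjusted p = 0.669), both by edgeR. The dcKO value turned to -0.12 with a correction for GC content and to -0.16 with voom. The labels give Ctrl replicate 1 and cKO replicate 2, Ctrl replicate 2 and cKO replicate 3, and Ctrl replicate 3 and dcKO replicate 3 the same number within their embryo codes, without saying what it marks. With that number as a block the dcKO value was -1.36 (edgeR). It rests on the 1 pair of Ctrl replicate 3 and dcKO replicate 3, so this fit cannot measure the spread between dcKO embryos. The pairs of cKO and Ctrl embryos differed by 0.05 and -0.05 on the log2 scale. Leaving out dcKO replicate 2 gave -0.64 ± 0.24 with an adjusted p of 0.098. With that library left out, 3 of the 5 tested members (Igf2bp1, Igf2bp2 and Hmga2) were below every Ctrl embryo, against 20.1% of tested genes. Of these, Igf2bp1 and Hmga2 had an unadjusted p under 0.05, against 13.6% of tested genes in that direction. With dcKO replicate 3 left out instead, 2 of the 5 (Lin28b and Igf2bp3) were above every Ctrl embryo and 0 below, against 32.3% of tested genes above. Of these, Lin28b had an unadjusted p under 0.05 (29.8% of tested genes), and the median of the 5 was 0.21 against 0.11 for all genes, so the members' counts in dcKO depend on which embryo is left out.

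Trim71 (ENSMUSG00000079259.3, chr9:114507133-114564369, minus strand), whose nematode ortholog lin-41 is a founding let-7 target, was near the limit of detection in every embryo but 1. It had 9, 5 and 26 reads in Ctrl, 17, 14 and 16 reads in cKO, and 9, 106 and 21 reads in dcKO. The log2 difference was 0.09 ± 0.92 in cKO and 1.16 ± 0.91 in dcKO (adjusted p = 1 and 0.512 by edgeR), and the groups overlapped. Without the library labelled dcKO replicate 2, the dcKO value was 0.02. Summed over embryos, 136 reads in dcKO against 40 in Ctrl gave a ratio of 2.54 (interval 1.77 to 3.71), of which 106 reads came from that library.

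Between dcKO and cKO the embryos overlapped for each of the 5 tested genes, with 2.62% of tested genes higher and 3.63% lower in dcKO than in cKO without overlap. The corresponding shares without overlap from Ctrl were 29.2% higher in cKO, and 15.6% higher and 11.2% lower in dcKO. The log2 differences between dcKO and cKO ranged from 0.01 ± 0.15 (Igf2bp2) to 0.51 ± 0.48 (Hmga2). Their direction depends on the embryo left out. Without dcKO replicate 2, Hmga2, Igf2bp1 and Igf2bp2 fell below 0 and the median of the 5 was -0.11. Then 2 of the 5 were lower without overlap and 0 higher, against 6.64% and 5.96% of tested genes. Without dcKO replicate 3 the median was 0.32, with 2 higher and 0 lower, against 25.4% and 27%. Among the 5 tested genes, 0 were above every Ctrl embryo in all 3 embryos of either mutant.

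**Figure D4:**
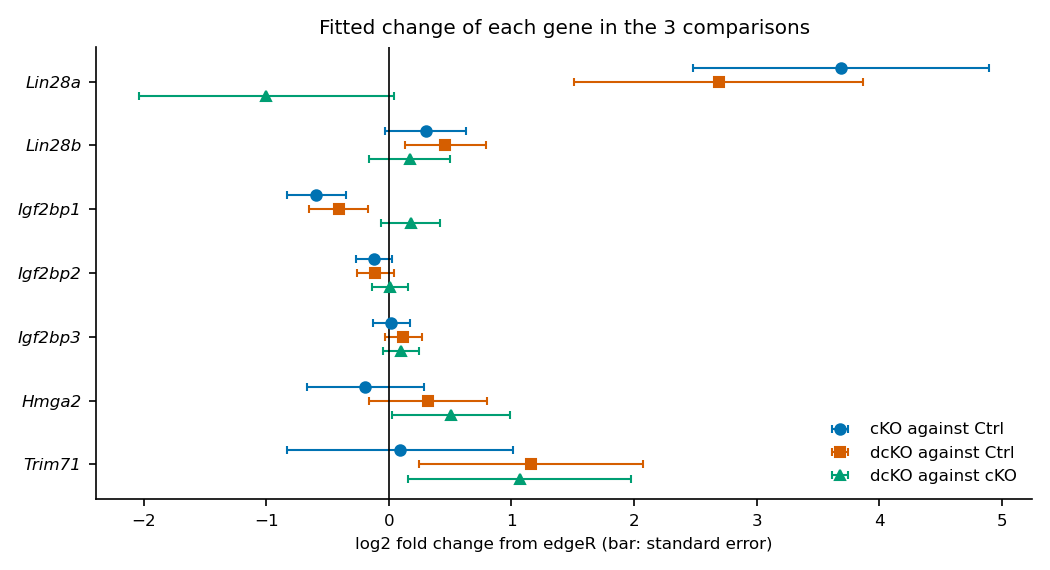
Fitted log2 fold change of each gene (horizontal axis) with its standard error as a bar, for cKO against Ctrl, dcKO against Ctrl and dcKO against cKO. The value for Lin28a in cKO is 3.69 ± 1.21, that for Igf2bp1 -0.59 ± 0.24, and those for Igf2bp2 and Igf2bp3 lie within 0.12 of 0 in all comparisons.

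Other let-7 targets were compared as a group, from a list of 20 genes, most of them regulators of growth and the cell cycle. The list was chosen with earlier results of these data known, and the study itself reported Ccnd1 and Ccnd2 as lower in both mutants. Its counts are therefore a description and no independent test, and the let-7 matches of the listed genes are not given here. In cKO, 14 of the 20 lay below every Ctrl embryo, against 28% of tested genes, and 8 were lower and 0 higher at an unadjusted p under 0.05, where 11.7% of tested genes were lower and 15.3% higher. Markers of cell types also differed in cKO, and their part in this result was not tested. Of 7 radial glia markers, 5 lay below every Ctrl embryo, with a median log2 difference of -0.43 and summed levels of 2730 to 3150 CPM in Ctrl and 2680 to 3070 CPM in cKO. Of 7 neuron markers, 4 lay below every Ctrl embryo, with a median of -0.58 and summed levels of 1370 to 1800 CPM in Ctrl and 1020 to 1430 CPM in cKO. The median log2 difference of the 20 let-7 targets was -0.52 against 0.01 for all tested genes. DESeq2 called 5 of them lower (3.87% of tested genes), namely Hmga1, Hic2, Ccnd1, Ccnd2 and E2f2. Hmga1, the paralog of Hmga2, was 372 ± 110 CPM in Ctrl and 132 ± 18.7 CPM in cKO, a log2 difference of -1.5 ± 0.44 (adjusted p = 0.0733 by edgeR, 0.00932 by DESeq2). Ccnd2, a G1 cyclin of cortical progenitors, was 2750 ± 108 CPM in Ctrl and 1150 ± 146 CPM in cKO (-1.26 ± 0.36 on the log2 scale). The cell cycle factor E2f2 was 60.7 ± 2.57 CPM in Ctrl and 25.6 ± 1.51 CPM in cKO. Mycn and Plagl2, growth-promoting transcription factors, and Igf1r, the receptor of IGF1 and IGF2, were the remaining 3 of the 8, with log2 differences of -0.96 ± 0.25, -0.82 ± 0.22 and -0.86 ± 0.17.

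In dcKO, 6 of the 20 were lower and 0 higher at an unadjusted p under 0.05, where 11.2% of tested genes were lower and 18% higher. The median was -0.49 against 0.11 for all tested genes, and DESeq2 called 3 lower (Hmga1, Nr6a1 and E2f2, with 3.79% of tested genes). In the fit without dcKO replicate 2, 12 of 20 were lower (13.6% of tested genes) and 0 higher (21%), and the median was -0.77, with 0.03 for all genes. Without dcKO replicate 3, 6 of 20 were lower and 3 higher, where 26.5% of tested genes were lower and 29.8% higher, so the share lower was then near that of all genes. The median of the 20 was still -0.47, with 0.11 for all genes.

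The machinery of let-7 processing and action was also measured. Of 9 processing genes, Prkra, a cofactor of Dicer, was higher in cKO (94.5 ± 4.53 CPM against 60.4 ± 8.25 CPM, log2 difference 0.65 ± 0.2, unadjusted p = 0.00791) and Khsrp, a protein that promotes let-7 maturation, was lower (160 ± 5.84 CPM against 292 ± 68.3 CPM, -0.87 ± 0.28, unadjusted p = 0.0112), and the other 7 had an unadjusted p of 0.05 or more. In dcKO, Prkra was higher and Khsrp and the pre-microRNA exporter Xpo5 were lower at an unadjusted p under 0.05. Of all tested genes, 15.3% were higher and 11.7% lower at that level in cKO, and 18% and 11.2% in dcKO. The dcKO counts were again 1 higher and 2 lower without dcKO replicate 2 (21% and 13.6% of tested genes). Without dcKO replicate 3 they were 3 higher and 3 lower (29.8% and 26.5%). By overlap, 5 of the 9 lay below every Ctrl embryo and 1 above in cKO, against 28% and 29.2% of tested genes. Drosha and Dicer1, the nucleases, differed by -0.19 ± 0.14 and -0.15 ± 0.2 in cKO. Of the 3 genes that uridylate and degrade pre-let-7, Tut4 alone passed the unadjusted threshold in the fit of all embryos. It did so only in dcKO, where 18% of tested genes were higher, at 167 ± 42.2 CPM against 109 ± 5.3 CPM (0.61 ± 0.2, adjusted p = 0.0848 by edgeR). Whether that differs from its 0.33 ± 0.2 in cKO was not shown by the comparison of the mutants, in which 0 of the 3 had an unadjusted p under 0.05. Other fits gave other counts. With only the 6 embryos compared, 2 of the 3 were higher and 1 lower in cKO (27.5% and 27.4% of tested genes). Without dcKO replicate 3, 2 were higher and 1 lower in dcKO (29.8% and 26.5%).

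Among 7 microRNA effectors, 3 were lower in cKO at an unadjusted p under 0.05, where 11.7% of tested genes were lower. The Argonaute Ago1 was 351 ± 38.1 CPM in cKO and 639 ± 11 CPM in Ctrl, and both Ago1 (± 0.22) and Ago2 (± 0.28) differed by -0.87 on the log2 scale. Tnrc6c, a GW182 protein that binds CCR4-NOT, was 46.1 ± 3.09 CPM against 93 ± 8.44 CPM (-1.01 ± 0.25, adjusted p = 0.0549 by edgeR and 0.00546 by DESeq2). In dcKO, Tnrc6c was lower and Ago4 higher at an unadjusted p under 0.05, where 11.2% of tested genes were lower and 18% higher, and the median of the 7 was -0.07 against -0.34 in cKO. Without dcKO replicate 2, 3 effectors were lower and 0 higher in dcKO, where 13.6% of tested genes were lower, and the median was -0.32. The direction turned with dcKO replicate 3 left out instead, to 1 lower and 2 higher with a median of 0.12, where 26.5% of tested genes were lower and 29.8% higher. Of 18 let-7 and miR-125 hairpin and host genes matched to the table, 15 had 0 reads in all embryos, so the microRNAs themselves were not measured. The hosts Mir99ahg, Huwe1 and Wdr82 had an unadjusted p of 0.05 or more in each comparison.

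**Figure D5:**
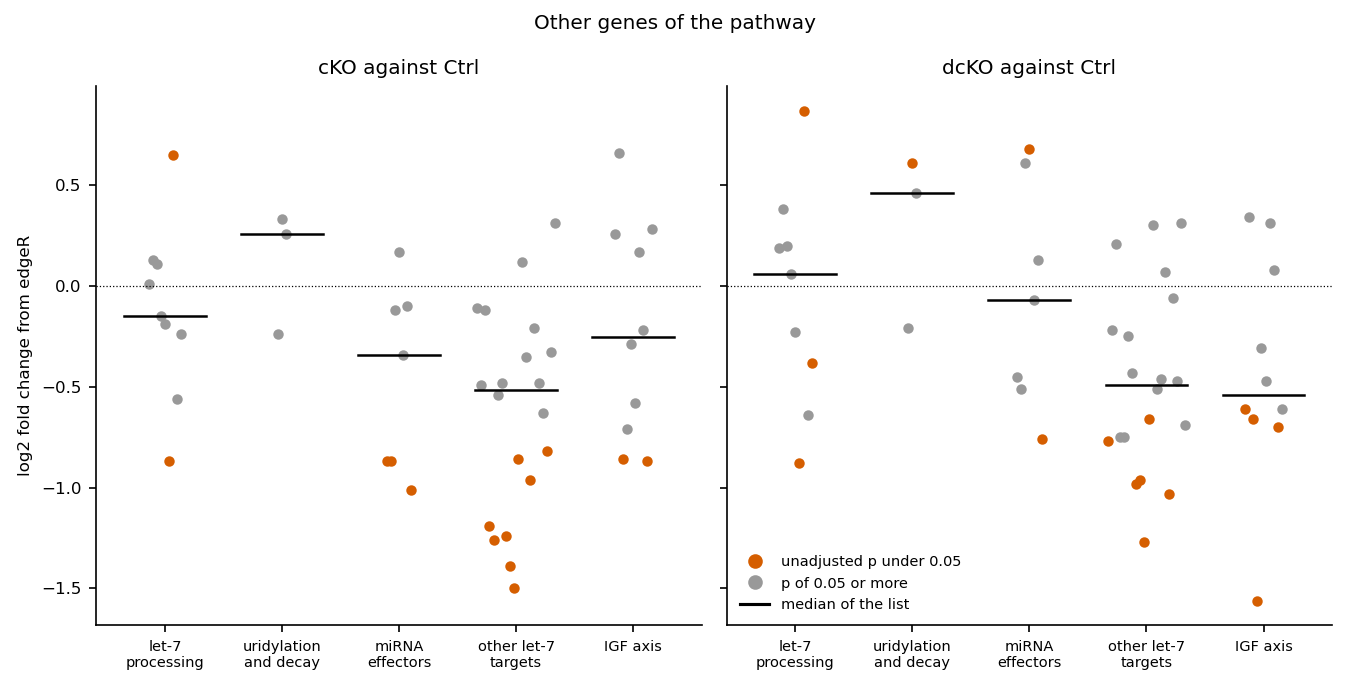
Log2 fold change from edgeR (vertical axis) of the genes of 5 pathway lists in cKO and dcKO against Ctrl, with genes at an unadjusted p under 0.05 in orange and the median of each list as a line. Of the 20 other let-7 targets, 8 in cKO and 6 in dcKO are orange, all below 0; Igf1r is in 2 lists.

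The IGF axis was listed because IGF2BP proteins bind the mRNA of the growth factor IGF2. Of 10 genes, Igf1r and the adaptor Irs1 were lower in cKO at an unadjusted p under 0.05, where 11.7% of tested genes were lower. Irs1 was at 30.7 ± 5.95 CPM against 55.9 ± 3.81 CPM (-0.87 ± 0.23). In dcKO, Igf2, the imprinted RNA H19, Igf1r and Irs1 were lower at an unadjusted p under 0.05, where 11.2% of tested genes were lower. The count was 5 of 10 without dcKO replicate 2, against 13.6%, and 6 of 10 without dcKO replicate 3, against 26.5%. By overlap, 5 of the 10 lay below every Ctrl embryo and 0 above in cKO, against 28% and 29.2% of tested genes. For dcKO, 5 lay below and 1 above, against 11.2% and 15.6%. Igf2, which vessels and meninges also express, was 7.02 ± 0.452 CPM in Ctrl, 4.28 ± 0.155 CPM in cKO and 2.39 ± 1.67 CPM in dcKO. The summed level of 5 meningeal markers was 770 to 848 CPM in Ctrl, 444 to 678 CPM in cKO and 316 to 511 CPM in dcKO, and 4 endothelial markers summed to 168 to 222 CPM in Ctrl, 165 to 225 CPM in cKO and 106 to 115 CPM in dcKO. Their part in the Igf2 values was not tested. Cdkn2a and Cdkn2b, the cell cycle inhibitors that Hmga2 represses in stem cells, had too few reads to test. Their relative Cdkn2c was 8.48 ± 3.63 CPM in cKO and 21.8 ± 1.13 CPM in Ctrl (-1.36 ± 0.39 on the log2 scale, adjusted p = 0.0702 by edgeR and 0.00935 by DESeq2). In dcKO it was 15.6 ± 6.34 CPM and overlapped with Ctrl (-0.48 ± 0.39, unadjusted p = 0.239 by edgeR).

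The 7 genes also serve as a check of embryo stage, since such early genes decline as neural progenitors mature. Globin switching gives an independent clock, as red cells exchange embryonic for definitive beta globins at about this age. The ratio of embryonic to definitive beta globin transcripts was 4.06, 4.82 and 7.23 in Ctrl, 7.54, 7.11 and 9.43 in cKO, and 14, 14.4 and 3.96 in dcKO. The genotypes overlapped (exact permutation p = 0.2 for cKO and 0.4 for dcKO against Ctrl), and 2 dcKO embryos had the highest ratios. Within a genotype, Hmga2 and the beta globin ratio ordered the embryos the same way in 8 of 9 pairs, Igf2bp3 in 7, Igf2bp1 and Trim71 in 6, Igf2bp2 in 5, Lin28b in 4 and Lin28a in 3. These pairs share embryos and are a description, and the order in dcKO includes the library labelled dcKO replicate 2. The alpha globin ratio ordered the genotypes differently, with means of 0.367 ± 0.121 in Ctrl, 0.389 ± 0.0929 in cKO and 0.247 ± 0.0329 in dcKO, and dcKO below every cKO embryo (exact permutation p = 0.1, the smallest possible). It did not give the same order among the dcKO embryos (0.211, 0.255 and 0.275), and there Hmga2 followed it in 1 of 3 pairs.

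Stage marker genes outside the 7 were compared with shares over all tested genes of 11.7% lower and 15.3% higher in cKO and 11.2% lower and 18% higher in dcKO. Of 6 other early progenitor genes, 3 of which are also among the let-7 targets, 3 were lower in cKO at an unadjusted p under 0.05 (Hmga1, Ccnd1 and Crabp2) and 0 higher, with a median of -0.53. Of 16 tested genes of late progenitors and glia, 4 were lower and 1 was higher, with a median of -0.05. They included Nfix, a factor of maturing progenitors, at 57.7 ± 5.74 CPM in cKO against 263 ± 88 CPM in Ctrl (-2.19 ± 0.33, adjusted p = 0.0509 by edgeR, 2.13e-07 by DESeq2), and Clu, an astrocyte gene, at 24 ± 6.13 CPM against 7.94 ± 1.47 CPM (1.6 ± 0.54). In dcKO 2 of the 6 early genes were lower (Nr6a1 and Hmga1) and 0 higher, with a median of -0.56. Of the 16 late genes, 2 were lower and 2 higher, close to the shares over all genes. These counts depend on which embryo is left out. Leaving out dcKO replicate 2 gave 2 early genes lower and 0 higher and 6 late genes lower and 2 higher, where 13.6% of tested genes were lower and 21% higher. Leaving out dcKO replicate 3 gave 2 early genes lower and 2 higher and 5 late genes lower and 4 higher, where 26.5% of tested genes were lower and 29.8% higher.

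For each of the 5 tested members, the genes with the most similar profile over the 9 embryos were found by the root mean square difference of centred log2 CPM among 13680 genes. For Hmga2 they were Dmrta1 (0.14) and Mkx (0.16), against a spread of 0.59 for Hmga2 itself, to which the library labelled dcKO replicate 2 contributes a level of 2.47 times the Ctrl mean. The likeness without that library was not tested. For Igf2bp1 (spread 0.36) they were Zfp41 and Mlec, both at 0.09. For Lin28b (0.33) they were Pik3ca (0.09) and Tmem126b (0.12). Igf2bp2 and Igf2bp3, with spreads of 0.11 and 0.1, were closest to Glyr1 and Tmem131 (0.06 each) and to Gapvd1 (0.04) and Ppp2cb (0.05). Among the members themselves, Igf2bp2 and Igf2bp3 were most alike (0.13), and Hmga2 differed from Igf2bp2 by 0.52 and from Igf2bp3 by 0.51.

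Genes grouped by their number of let-7 matches give the background for these targets. In cKO, the median log2 difference was 0.05 for 10788 tested genes with no match, 0.01 for 1039 with 1 match, -0.16 for 124 with 2 and -0.06 for 20 with 3 or more, the 7 genes left out. In dcKO the medians were 0.11, 0.1, -0.03 and -0.1. The median 3′UTR length of these groups ran from 1028 bases with no match to 4791 bases with 3 or more, and its part in the medians was not tested.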

How the data were processed

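Cortices of 9 single E12.5 embryos (3 Ctrl, 3 Cnot3 cKO, 3 Cnot3;Trp53 dcKO) had been sequenced as stranded poly(A) libraries. The authors deposited raw counts per gene, without normalization, and the submitters' processing notes name FastQC, cutadapt, STAR, featureCounts, DESeq2 and the build mm39. The strand setting of counting is not given in the sources used here. Embryos were grouped by their labels. R 4.3.3 and edgeR 4.0.16 (TMM, quasi-likelihood, all 9 embryos, no covariate) tested the 13680 genes that exceeded 10 reads in each of the libraries, with Benjamini-Hochberg adjustment. DESeq2 1.42.0 and limma 3.58.1 were alternatives. The scripts were tested on simulated counts. CPM used TMM factors. An exact two-sided permutation test compared 3 with 3 embryos. Intervals of summed reads are exact (95%), and the floor is 3 reads. Coordinates and 3′UTRs came from GENCODE M21 (GRCm38), as the build of the alignment was not used here, and microRNAs from RefSeq. Symbols matched 52029 of 57010 identifiers. The text names the 7 members, the targeted genes, list genes at an unadjusted p under 0.05 or otherwise where their list is counted, and the 2 genes most like each tested member. Members and lists were chosen with earlier results of these data known.

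Embryos sharing a replicate number deviated from their genotype means with a mean r of -0.169 (9 pairs), against 0.0835 for 18 other pairs. The numbers were therefore not taken to pair embryos. Depth limits precision for Lin28a and Trim71. Other assays of the study were not analysed here.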

Additional observations from a re-analysis of the deposited data

How the results depend on the processing

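The count of called genes was not stable, while that of the 5 tested members was 0 under each alternative except the block for the embryo's code number. With 2, 0 and 2 genes called in cKO against Ctrl, dcKO against Ctrl and dcKO against cKO, DESeq2 called 1206, 1157 and 52, voom with quality weights 1868, 3668 and 27, GC correction 758, 257 and 9, and no filter 813, 692 and 8. Fits of the 6 embryos compared called 1758 in cKO and 0 between the mutants. The replicate block called 0 in both of these comparisons, and the replicate block with GC correction 4 and 6. With the code number as a block the counts were 1986, 1633 and 1583, and 1 member (Hmga2) was called in each of the last 2. Leaving out each embryo gave 0 to 1473 calls in cKO, 0 to 3245 in dcKO and 0 to 1236 between the mutants. Leaving out dcKO replicates 1, 2 or 3 gave 919, 1141 and 1473 calls in cKO, and leaving out dcKO replicates 2 and 3 gave 1330 and 3245 in dcKO. The cause was not tested.

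Of the members, Lin28a in cKO passed the threshold under 8 alternatives, and in dcKO under 1. Other members changed sign under some alternatives, with no call on either side except for Hmga2 under the code block. The sign of Lin28a in dcKO also turned under that block. With the code block (1 shared number for dcKO and Ctrl), dcKO against Ctrl gave -3.25 for Lin28a, -0.24 for Lin28b, -0.18 for Igf2bp3, -1.36 for Hmga2 and -0.19 for Trim71, dcKO against cKO gave -0.49 for Lin28b, -0.31 for Igf2bp1, -0.07 for Igf2bp2, -0.26 for Igf2bp3, -1.36 for Hmga2 and -1.01 for Trim71, and cKO against Ctrl gave 0 for Hmga2. With GC correction, Igf2bp3 gave -0.22 in both mutants (also with the replicate block), Lin28b -0.1 in dcKO and -0.16 between the mutants (-0.1 and -0.15 with the block), and Hmga2 -0.12 in dcKO (-0.3 with the block). Between the mutants Igf2bp2 gave -0.01 with RLE factors and DESeq2, -0.03 with no filter, -0.02 with filterByExpr and -0.04 without cKO replicate 3. Voom gave -0.16 for Hmga2 in dcKO and, between the mutants, -0.08 for Igf2bp1, -0.09 for Igf2bp2, 0 for Hmga2 and -0.39 for Trim71. Igf2bp3 in cKO gave -0.04 with no filter or filterByExpr. Leaving out each embryo moved Igf2bp3 in cKO from -0.01 (without Ctrl replicate 1 or 2) to 0.07 and Trim71 from -0.24 to 0.85 (without Ctrl replicate 2 or 3), and Hmga2 in dcKO from -0.64 to 0.72 (without dcKO replicate 2 or 3). Between the mutants the ranges were -0.18 to 0.35 for Igf2bp1, -0.11 to 0.06 for Igf2bp2, -0.45 to 0.9 for Hmga2 and -0.09 to 1.57 for Trim71, each lowest without dcKO replicate 2. The replicate block alone changed no member's call. With 1 to 3 reads in Ctrl, the fitted fold of Lin28a depends on the prior count, and its depth supports a ratio only within the interval given.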
